A study of Mus musculus with 10 samples.

Results

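Glycolysis, the pentose phosphate pathway and lactate export were followed through 39 genes in mouse lung tumors with or without homozygous floxed alleles of Slc2a1, which encodes Glut1, a glucose carrier of the cell membrane. The genes were chosen by name, with earlier results of these data known. The symbol column of the count table of 39017 genes held 38 of the 39, and Tigar, listed there under an older symbol, was found by its gene identifier. All 39 passed the filter on low counts and were among the 16216 genes tested.

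KP and KPG1 tumors carried the same engineered tumor-initiating alleles in male C57BL/6 mice and were started by an adenovirus that delivers Cre under the SPC promoter, which is active in alveolar type 2 cells. KPG1 tumors (n = 5 libraries) were in addition homozygous for the floxed Slc2a1. The KP controls (n = 5 libraries) are labelled heterozygous for that allele, whereas the protocol text gives them no floxed Slc2a1 at all, so the dose of the gene in the controls is uncertain. The methods of the study allow controls of either kind, wild-type or heterozygous. They state that tumor development did not noticeably differ between the kinds. Tumors were macrodissected at 18 weeks and 6 days, immune cells were removed with beads against CD45, and polyadenylated RNA was sequenced to 32427029 to 49534284 counts per library. The labels do not say whether libraries came from separate mice, so p-values measure the spread between these samples, which may be partly technical.

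Glycolysis converts glucose to pyruvate and yields ATP without oxygen. Its entry is set by hexokinase, its main control point is phosphofructokinase, and Pfkfb enzymes make or remove fructose 2,6-bisphosphate, the activator of that step. Lactate dehydrogenase turns pyruvate into lactate, which leaves the cell through monocarboxylate transporters. The pentose phosphate pathway branches off at glucose 6-phosphate and supplies NADPH in its oxidative part and ribose phosphate in its non-oxidative part. Hypoxia-inducible factors, which bind cores such as ACGTG, are known to drive many glycolytic genes.

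The promoter letters before the start of 4 members are shown because these genes are among the 7 with an unadjusted p under 0.05 and have at least 200 bases that no annotated exon covers. They are RefSeq sequences of build GRCm38.p6, 5′ to 3′ on the strand of the gene, with ACGTG or its complement in capitals. Hk2 and Pgk1, both at lower values in KPG1, each held 2 such matches, while Pfkp, also lower, and Rpe, which was higher, held none.
Hk2, chr6:82774455-82774704, minus strand: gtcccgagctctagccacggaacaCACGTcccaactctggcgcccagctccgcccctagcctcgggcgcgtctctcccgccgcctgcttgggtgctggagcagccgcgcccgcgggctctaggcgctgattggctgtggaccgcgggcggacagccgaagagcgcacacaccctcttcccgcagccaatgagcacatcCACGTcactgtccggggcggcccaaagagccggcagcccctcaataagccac
Pgk1, chrX:106186850-106187099, plus strand: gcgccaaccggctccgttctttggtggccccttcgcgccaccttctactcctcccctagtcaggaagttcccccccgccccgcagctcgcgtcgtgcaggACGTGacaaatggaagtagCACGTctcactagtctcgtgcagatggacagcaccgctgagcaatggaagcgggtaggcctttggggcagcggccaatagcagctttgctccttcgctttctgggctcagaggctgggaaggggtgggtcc
Pfkp, chr13:6648778-6649021, minus strand: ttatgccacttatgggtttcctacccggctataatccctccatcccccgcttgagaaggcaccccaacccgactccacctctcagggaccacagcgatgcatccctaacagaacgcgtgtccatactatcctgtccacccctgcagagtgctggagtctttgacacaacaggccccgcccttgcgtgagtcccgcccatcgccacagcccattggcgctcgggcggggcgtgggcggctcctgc
Rpe, chr1:66700581-66700830, plus strand: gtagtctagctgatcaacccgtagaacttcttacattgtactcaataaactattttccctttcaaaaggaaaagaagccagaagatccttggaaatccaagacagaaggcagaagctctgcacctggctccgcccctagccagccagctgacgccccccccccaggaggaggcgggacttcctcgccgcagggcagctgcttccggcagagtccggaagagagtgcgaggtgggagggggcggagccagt
Over the 250 bases before the first listed start of each gene, searched on both strands, ACGTG was found in 11 of 38 members with a promoter entry (28.9%). Of all 27025 genes with such an entry, 16.6% held it. Further starts of a gene were left out (32851 windows were listed). The longer E-box CACGTG, which contains the ACGTG core, was found in 5 of 38 members (13.2%) against 6.05% of the 27025 genes. Of the 6 members with lower values at an unadjusted p under 0.05, 3 held ACGTG (Hk2, Pgk1 and Pfkfb3) and 0 held CACGTG. The match of Pfkfb3 lay outside the first 102 bases of its window, which no annotated exon covers. Eno2 and Pkm had only 0 and 42 such bases. These are matches of letters, other forms of the core were not searched, and binding was not measured.

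The targeted gene was checked first. Slc2a1 was at 78.8, 127, 123, 109 and 71.7 CPM in KP 1 to 5 and 47.3, 66.8, 40.8, 51.3 and 44.3 CPM in KPG1 1 to 5 (CPM, counts scaled to the size of each library). Every KPG1 library lay below every KP library, although transcript remained in all of them (log2 fold change -1.01, two-sided exact permutation p = 0.00794, the smallest that 5 against 5 libraries allow; limma adjusted p = 0.0675 over all genes). With 1 library left out, the limma adjusted p for Slc2a1, KPG1 against KP, ran from 0.0220 (without KP 5) to 0.230 (without KPG1 3). With the library number of the titles as a covariate the log2 fold change was -0.88 (limma adjusted p = 0.371). Library numbers were 11, 12, 15, 16 and 6 in KP 1 to 5. In KPG1 1 to 5 they were 10, 1, 4, 5 and 9. Number and genotype thus largely ran together, and their parts in that value cannot be told apart. Slc2a3, which encodes the transporter Glut3, was at 648, 68.8, 34.4, 9.96 and 3.81 CPM in KP 1 to 5. In KPG1 it ranged from 83.4 to 328 CPM, and the groups overlapped only through KP 1. The Slc2a3 log2 fold change was 2.09 in limma (adjusted p = 0.493), 0.14 in edgeR's quasi-likelihood test and 0.13 in DESeq2. In bulk samples, fewer cells of a type and less RNA per cell cannot be told apart.

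No member passed an adjusted p of 0.05 in limma, where 28 of all genes did (0.173%, of which 0.0617% higher and 0.111% lower in KPG1). At an unadjusted p under 0.05, 6 members were lower in KPG1 and 1 was higher, 17.9% of the 39 against 11.6% of all genes tested. By direction the background was 6.31% lower and 5.26% higher. Because the members were chosen with earlier results of these data known, shares set against all genes describe the list and test nothing. The fitted value was below 0 for 26 of 39 members (66.7%, against 47.3% of all genes), with a median log2 fold change of -0.16 over the members and 0.02 over all genes. The groups did not overlap for 3 members (7.69%, against 2.81% of all genes, 1.76% lower and 1.05% higher): Hk2 and Pfkfb3 on the lower side and Rpe on the higher side. The summed level of the 39 genes was 7985 ± 909 CPM in KP and 7042 ± 676 CPM in KPG1 (SD, n = 5 each), and the ranges overlapped. The sum depends on how reads shared with other genes were assigned.

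**Figure D1:**
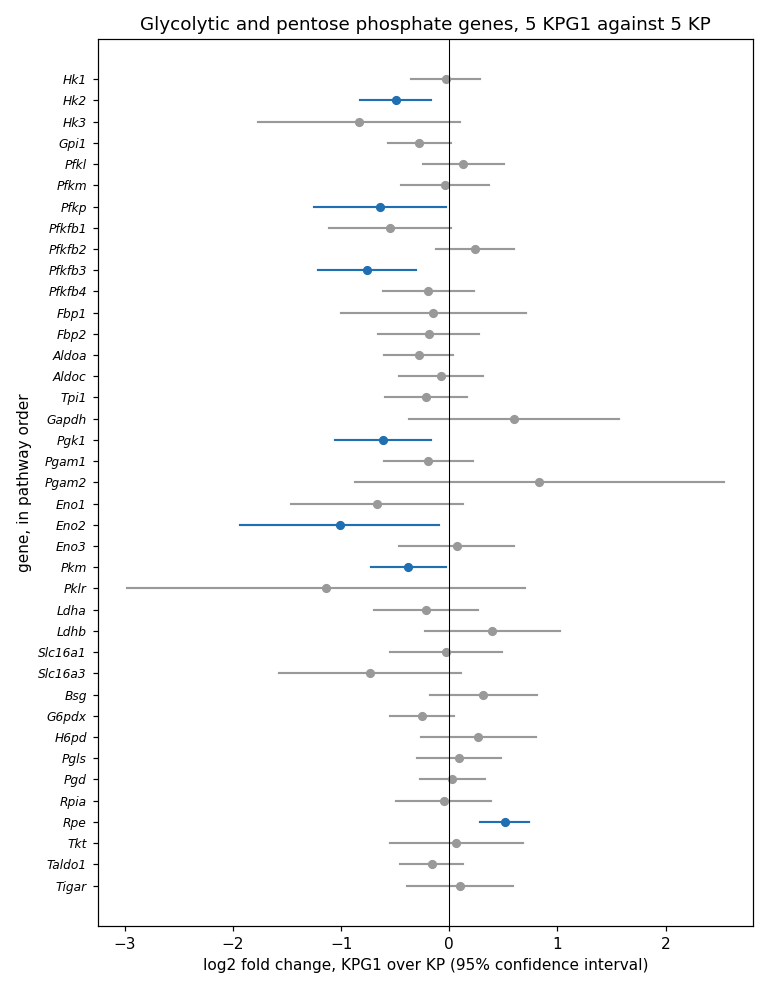
Log2 fold change of KPG1 over KP for the 39 genes, in pathway order, as points with 95% confidence intervals from limma. Blue marks the 7 genes with an unadjusted p under 0.05, of which Rpe lies to the right of 0 and the other 6 to the left.

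Hexokinases trap glucose in the cell as glucose 6-phosphate. Hk2, the inducible form often raised in tumors, was at 177, 244, 197, 182 and 247 CPM in KP 1 to 5 and 152, 177, 116, 139 and 159 CPM in KPG1 1 to 5. All KPG1 libraries were below the lowest KP library, although KP 1 and KPG1 2 were nearly equal (log2 fold change -0.50, SE 0.149, adjusted p = 0.239, limma). Hk1, the constitutive form, had a log2 fold change of -0.03. Hk3 was at 5 to 21 counts per library, too few to compare closely. Gpi1, the isomerase of the next step, was at 461, 613, 482, 579.9 and 612 CPM in KP 1 to 5 and 411, 542, 417, 419 and 472 CPM in KPG1 1 to 5, with overlapping groups (log2 fold change -0.28, SE 0.133, adjusted p = 0.451, limma).

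Phosphofructokinase has liver, muscle and platelet forms. The liver form Pfkl was the most abundant per length and was at 148, 136, 255, 165 and 143 CPM in KP 1 to 5 and 177, 191, 196, 183 and 156 CPM in KPG1 1 to 5, with KP 3 standing above the others (log2 fold change 0.13, SE 0.170, adjusted p = 0.814, limma). The platelet form Pfkp was at 110.2, 103, 65.5, 142 and 73.3 CPM in KP 1 to 5 and 92.7, 86.6, 55.5, 48.2 and 38.9 CPM in KPG1 1 to 5. Its highest 3 values were in KP and its lowest 3 in KPG1, with the rest interleaved (log2 fold change -0.64, SE 0.279, adjusted p = 0.409, limma). The muscle form Pfkm had a log2 fold change of -0.04. Exons of Pfkp share 748 bases with Pitrm1 on the opposite strand, for which the fitted value was 0.01.

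Among the 4 Pfkfb enzymes, Pfkfb3, the isoform with the strongest kinase activity, was at 83.5, 89.3, 84.6, 119 and 179 CPM in KP 1 to 5 and 57.8, 78.2, 57.4, 62.0 and 59.7 CPM in KPG1 1 to 5. All KP libraries lay above all KPG1 libraries, and KP 5 was the highest (log2 fold change -0.76, SE 0.208, adjusted p = 0.206, limma). Without KP 5 the log2 fold change was -0.59, and with DESeq2, which passed too many unchanged genes on simulated counts, the adjusted p was 0.0197. Pfkfb2 was at 98.5, 142, 129.5, 136 and 176 CPM in KP 1 to 5 and 203, 137, 147, 161 and 150.2 CPM in KPG1 1 to 5 and was lowest in KP 1 and highest in KPG1 1 (log2 fold change 0.24, SE 0.164, adjusted p = 0.608, limma). Pfkfb4 differed by -0.19 and the sparsely counted Pfkfb1 by -0.55 on the log2 scale, both with overlapping groups. Fructose bisphosphatases run the phosphofructokinase step in reverse. Fbp2 was the more abundant, at 103, 77.5, 97.0, 89.0 and 172 CPM in KP 1 to 5 and 103, 105, 73.7, 72.0 and 106 CPM in KPG1 1 to 5, with KP 5 the highest library (log2 fold change -0.19, SE 0.215, adjusted p = 0.773, limma), and Fbp1, a neighbor 6331 bases away, had a log2 fold change of -0.15.

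**Figure D2:**
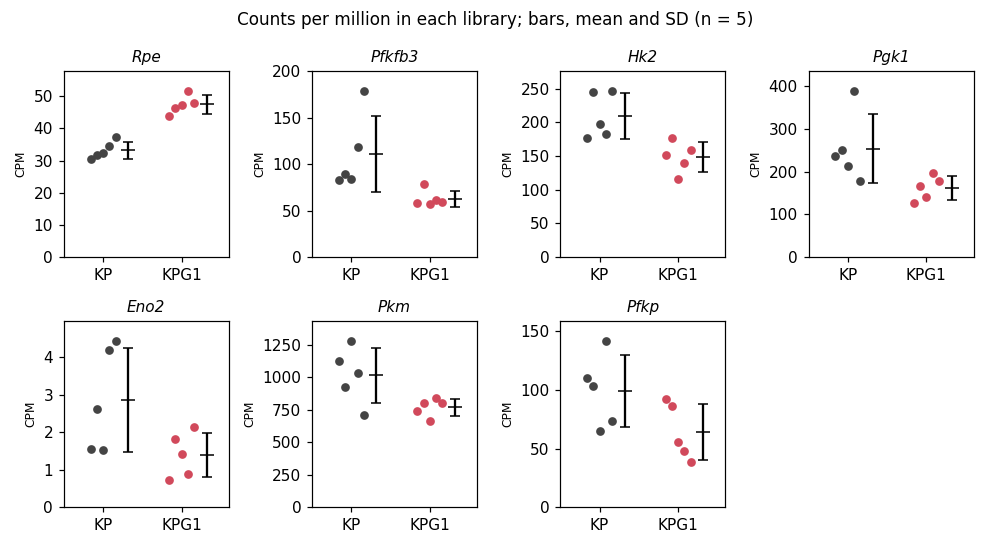
CPM in each library (points) with group mean and SD (bars, n = 5) for the 7 genes with an unadjusted p under 0.05, each on a linear axis from 0. The groups separate for Rpe, Pfkfb3 and Hk2 and overlap for Pgk1, Eno2, Pkm and Pfkp.

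The middle and lower steps act on 3-carbon sugars and make ATP. Aldoa, the main aldolase, was at 817, 1100, 956, 1084 and 992 CPM in KP 1 to 5 and 843, 1054, 779, 705 and 715 CPM in KPG1 1 to 5, with interleaved groups (log2 fold change -0.28, SE 0.144, adjusted p = 0.482, limma), and Aldoc differed by -0.08. Tpi1, triose phosphate isomerase, was at 414, 557, 682, 763 and 708 CPM in KP 1 to 5 and 474, 619.6, 501, 579 and 472 CPM in KPG1 1 to 5 and KP 1 was the lowest library (log2 fold change -0.21, SE 0.174, adjusted p = 0.668, limma). Pgk1, which makes the first ATP of the pathway, was at 236, 250.1, 213, 389.5 and 179 CPM in KP 1 to 5 and 126, 167, 141, 196 and 179 CPM in KPG1 1 to 5. KP 4 was the highest, and KP 5 lay within the KPG1 range (log2 fold change -0.61, SE 0.203, adjusted p = 0.277, limma). Without KP 4 its log2 fold change was -0.45 and without KP 5 it was -0.74. Of the 85-base words of Pgk1, 67.3% also occur in another gene, so its counts depend on how shared reads were assigned.

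Gapdh, glyceraldehyde phosphate dehydrogenase, was at 53.7, 134, 35.0, 21.7 and 58.6 CPM in KP 1 to 5 and 103, 49.8, 116, 92.4 and 44.9 CPM in KPG1 1 to 5, which spans 6.18-fold within KP and overlaps between groups (log2 fold change 0.60, SE 0.441, adjusted p = 0.633, limma). Here 54.5% of the words occur in other genes, 83 of its 93 copies are in the table, and the counts on those copies came to 107% of the counts on Gapdh itself. Summed with the copies the log2 fold change was 0.46. The value of Gapdh in this table is therefore uncertain. Pgam1, phosphoglycerate mutase, shares 40.3% of its words and was at 36.9, 34.9, 45.0, 70.2 and 37.9 CPM in KP 1 to 5 and 38.1, 38.9, 31.9, 41.5 and 40.7 CPM in KPG1 1 to 5, with KP 4 the highest (log2 fold change -0.20, SE 0.188, adjusted p = 0.726, limma). The muscle form Pgam2 was at 6 to 80 counts per library.

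Eno1, the main enolase, was at 239, 332, 192, 359.5 and 105 CPM in KP 1 to 5 and 222, 219, 126, 92.2 and 101 CPM in KPG1 1 to 5. KP 5 was among the lowest libraries while the other 4 KP libraries were at 192 CPM or more (log2 fold change -0.67, SE 0.361, adjusted p = 0.506, limma), and 42.2% of its words are shared. Eno2, the neuronal enolase, was at 1.54, 2.61, 1.54, 4.18 and 4.43 CPM in KP 1 to 5 and 0.721, 1.81, 1.43, 0.886 and 2.13 CPM in KPG1 1 to 5 and far scarcer per length than Eno1 (means of 0.452 and 37.0 CPM per kilobase). Its groups overlapped (log2 fold change -1.01, SE 0.421, adjusted p = 0.382, limma). Eno3 differed by 0.07. Pkm, whose 2 splice forms M1 and M2 are not separated in gene counts, was at 1126, 927, 1278, 1030 and 709 CPM in KP 1 to 5 and 739, 800.2, 665, 838 and 799 CPM in KPG1 1 to 5. Of the KP libraries only KP 5 lay within the KPG1 range (log2 fold change -0.38, SE 0.159, adjusted p = 0.389, limma). Pklr, the liver and red cell form, ranged from 17 to 1055 counts and had a log2 fold change of -1.14 with an interval from -2.98 to 0.70.

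Ldha, which favors lactate formation, was at 720.2, 1334, 1240, 1450 and 1209 CPM in KP 1 to 5 and 1041, 1479, 837, 812 and 942 CPM in KPG1 1 to 5. KP 1 was the lowest library of all, and the groups overlapped (log2 fold change -0.22, SE 0.219, adjusted p = 0.740, limma). Ldhb, which favors pyruvate, differed by 0.40. Of the lactate transporters, Slc16a3, the hypoxia-responsive Mct4, differed by -0.73 (limma adjusted p = 0.493) and Slc16a1, Mct1, by -0.03. Bsg, the chaperone that carries both to the membrane and the most abundant member per length at 364 CPM per kilobase, was at 313, 558, 755, 599.7 and 789 CPM in KP 1 to 5 and 802, 733, 682, 726 and 636 CPM in KPG1 1 to 5, with KP 1 far below the rest (log2 fold change 0.31, SE 0.226, adjusted p = 0.625, limma). That ranking depends on how reads shared with other genes were assigned, as for Gapdh and Pgk1.

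In the oxidative pentose phosphate branch, H6pd, the enzyme of the endoplasmic reticulum, was the most abundant per length and was at 171, 446, 376, 283 and 449 CPM in KP 1 to 5 and 396, 408, 347, 433 and 385 CPM in KPG1 1 to 5, with KP 1 the lowest (log2 fold change 0.27, SE 0.241, adjusted p = 0.703, limma). G6pdx, the rate-limiting cytosolic enzyme, differed by -0.25, Pgls by 0.09 and Pgd by 0.03. In the non-oxidative branch, Taldo1 was at 112, 129.9, 126, 87.9 and 121 CPM in KP 1 to 5 and 105, 118, 106, 92.8 and 92.3 CPM in KPG1 1 to 5, with overlapping groups (log2 fold change -0.16, SE 0.133, adjusted p = 0.672, limma). Tkt differed by 0.07 and Rpia by -0.05. Tigar, which lowers fructose 2,6-bisphosphate, was at 19.6, 22.8, 19.3, 17.5 and 9.65 CPM in KP 1 to 5 and 16.9, 18.1, 19.0, 22.4 and 14.8 CPM in KPG1 1 to 5, with KP 5 the lowest library (log2 fold change 0.10, SE 0.223, adjusted p = 0.899, limma).

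Rpe, the epimerase of ribulose 5-phosphate (chr1:66700831-66719805, plus strand), was the member with the smallest p. It was at 30.4, 31.6, 32.3, 34.5 and 37.2 CPM in KP 1 to 5 and 43.9, 46.5, 47.3, 51.7 and 48.0 CPM in KPG1 1 to 5. Every KPG1 library was above every KP library, and the spread within groups was narrow (log2 fold change 0.51, SE 0.104, adjusted p = 0.0837, limma). With 1 library left out its limma adjusted p ran from 0.0333 (without KP 5) to 0.245. Adding the library number of the titles, largely confounded with genotype, as a covariate brought that p to 0.392. Exons of Rpe share 558 bases with Kansl1l on the opposite strand, which had 1416 to 2893 counts and a log2 fold change of 0.43 (limma adjusted p = 0.302). The kit marks strand, but whether counting used it is not given in the sources used here, so the reads of the 2 genes may not be fully separated and the part of Kansl1l in the value of Rpe was not tested.

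**Figure D3:**
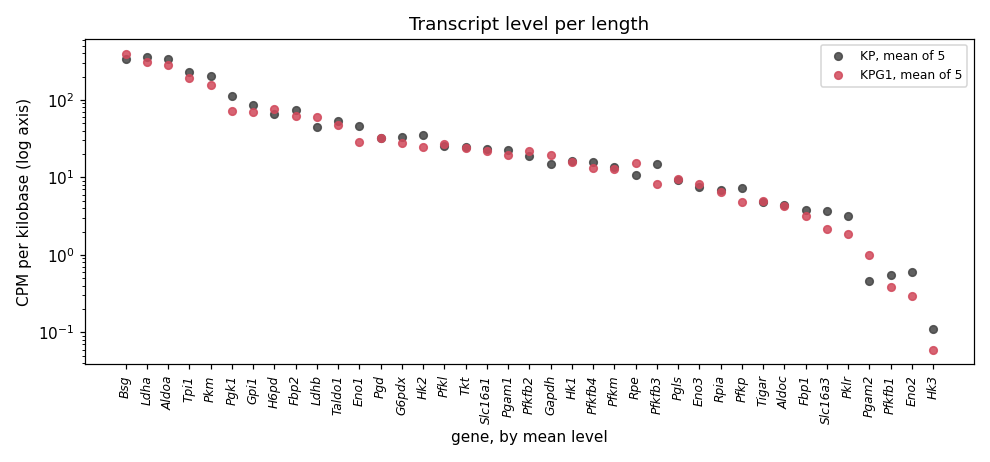
Mean level of each gene per length, in CPM per kilobase on a log axis, for KP and KPG1 (n = 5 each), ordered by level. Bsg, Ldha, Aldoa, Tpi1 and Pkm are the most abundant and Hk3 the least. Levels of Gapdh, Pgk1, Eno1 and Pgam1 depend on how reads shared with other genes were assigned. Lengths merge all annotated exons of a gene.

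Ratios between paired genes, most of them isoenzymes, cancel whatever scales a library as a whole. The others paired Fbp1 with Pfkl, G6pdx with Gpi1 and the transporters Slc16a3 with Slc16a1. Of 10 ratios, Pfkfb3 to Pfkfb2 was the only one whose groups did not overlap, at -0.67 to 0.03 in KP and -1.81 to -0.80 in KPG1 on the log2 scale. The difference, KPG1 minus KP, was -0.999 (two-sided exact permutation p = 0.00794, 0.0794 after Benjamini-Hochberg adjustment over the 10). Hk2 to Hk1 differed by -0.46 (exact permutation p = 0.0635, adjusted 0.258), Pfkp to Pfkl by -0.77 (exact permutation p = 0.0952, adjusted 0.258) and Ldha to Ldhb by -0.62 (exact permutation p = 0.103, adjusted 0.258). None of the 10 passed after adjustment, and 1 had an unadjusted p under 0.05.

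**Figure D4:**
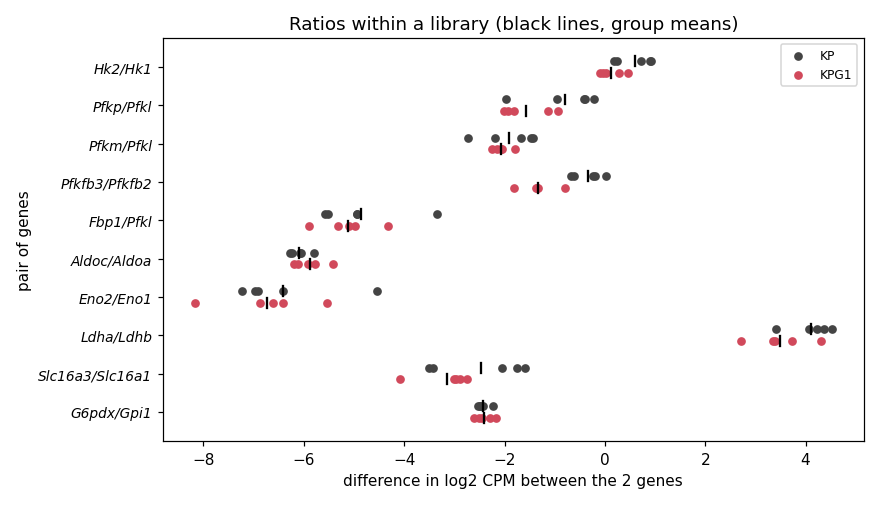
Difference in log2 CPM between paired genes in each library (points, KP above KPG1 within a pair) with group means (black lines). The groups are apart for Pfkfb3 to Pfkfb2 and overlap for the other 9 pairs.

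Beside the members, 28 other genes were listed and in the table, called other pathway genes below. They include the transcriptional regulators Myc, Hif1a and Mlxipl and the mitochondrial pyruvate carrier genes Mpc1 and Mpc2. Of the 28, 19 passed the filter. At an unadjusted p under 0.05, 5 were higher in KPG1 and 1 was lower, 31.6% of the 19 against 11.6% of all genes tested (5.26% higher and 6.31% lower), and 0 passed after adjustment in limma. Their median log2 fold change was 0.18, against 0.02 over all genes. This list too was chosen with earlier results of these data known, so its shares are descriptions only. Myc, a transcription factor that activates glycolytic genes, was at 64.5, 60.1, 69.7, 85.3 and 63.5 CPM in KP 1 to 5 and 33.6, 46.1, 44.9, 47.0 and 52.4 CPM in KPG1 1 to 5, with every KPG1 library below every KP library (log2 fold change -0.62, SE 0.145, adjusted p = 0.142, limma). Mpc2, a subunit of the mitochondrial pyruvate carrier, was at 25.3, 27.8, 28.1, 24.3 and 26.1 CPM in KP 1 to 5 and 43.4, 39.5, 33.8, 31.6 and 30.4 CPM in KPG1 1 to 5, and every KPG1 library was above every KP library (log2 fold change 0.43, SE 0.129, adjusted p = 0.239, limma). Slc16a7, the transporter Mct2, was at 6.76, 6.91, 7.66, 4.89 and 5.21 CPM in KP 1 to 5 and 12.5, 10.2, 16.4, 11.1 and 7.37 CPM in KPG1 1 to 5, and the groups overlapped at a single pair of libraries (log2 fold change 0.86, SE 0.237, adjusted p = 0.206, limma). Emb, a chaperone of monocarboxylate transporters, differed by 1.46 (limma adjusted p = 0.292) and Bpgm, which makes 2,3-bisphosphoglycerate, by 0.44 (limma adjusted p = 0.327). Hif1a mRNA differed by 0.18.

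The libraries also differed in cell type and proliferation markers. All 10 alveolar type 2 markers had higher fitted values in KPG1, 3 with an unadjusted p under 0.05, and their sum was 18760 to 63420 CPM in KP and 48410 to 88310 CPM in KPG1. Of 6 epithelial markers, the keratins Krt8, Krt18 and Krt19 were lower in KPG1 at an unadjusted p under 0.05, while Epcam (log2 fold change 0.05), Cdh1 (-0.10) and Cldn7 (-0.19) were not past it. Krt8 and Krt18 averaged 1352 and 1782 CPM in KP and 847 and 967 CPM in KPG1, and the sum of the 6 was 4298 to 6063 CPM in KP and 3211 to 3960 CPM in KPG1. Proliferation markers summed to 160 to 523 CPM in KP, lowest in KP 5, and 405 to 665 CPM in KPG1. Of the 10, 9 had higher fitted values in KPG1, and Top2a, Bub1 and Rrm2 were higher at an unadjusted p under 0.05. Leukocyte markers were low in both groups (13.6 to 46.5 and 15.1 to 34.8 CPM) and so were muscle markers (1.15 to 60.9 and 1.37 to 10.6 CPM). Myeloid markers had lower fitted values for 9 of 10 genes, 4 of them at an unadjusted p under 0.05 (S100a8, S100a9, Itgam and Csf3r) and 3 of these without overlap (S100a8 at -1.84, S100a9 at -1.98 and Itgam at -1.04 on the log2 scale). Their sum, in which Lyz2 (also made by alveolar type 2 cells) is included, was 477 to 3623 CPM in KP and 2057 to 6217 CPM in KPG1. Endothelial (236 to 724 and 366 to 1064 CPM), fibroblast (116 to 285 and 184 to 314 CPM, with Dcn higher at an unadjusted p under 0.05) and erythroid sums (86.4 to 474 and 153 to 330 CPM) overlapped. Outside the myeloid markers, groups also did not overlap for Abca3 and Top2a (higher in KPG1) and for Krt8 and Krt18 (lower). Over all genes tested, 11.6% had an unadjusted limma p under 0.05, and the groups did not overlap for 2.81%. KP 1 was the lowest library for 10 members and KP 5 the highest for 10, and these were the extremes of the first principal component over all genes. The part of these markers in the values above was not tested.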

How the data were processed

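The authors deposited raw counts per gene of polyadenylated RNA from the 10 libraries. The joint table and the single-library files held equal values, 0 columns belonged to another series, and the deposited log2 values were not used. The submitters' processing notes name bcl2fastq 2.17, cutadapt 1.4.2, HISAT2, featureCounts 1.4.4 and build mm10; the methods of the study give another cutadapt version, and the annotation and strand setting of counting are not given in the sources used here. The engineered tumor-initiating alleles are not reported here.

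Counts were filtered with filterByExpr, scaled with TMM factors and tested with voom and limma 3.58.1 (edgeR 4.0.16, R 4.3.3), genotype being the only term. p-values were adjusted over all genes by Benjamini-Hochberg (threshold 0.05). Log2 CPM used a prior count of 2. Lengths and coordinates are from the GENCODE M21 annotation of the same build. Copies were found with blastn 2.17.0 (at least 95% identity over 200 bases), and shared words were 85 bases, the read length. Every library is printed for members with an unadjusted p under 0.05 or without overlap and for the most abundant member of each role, and up to 5 other pathway genes with the smallest p are named. edgeR's quasi-likelihood test, DESeq2 1.42.0, other filters, scalings, weights, covariates and leaving out libraries were alternatives. The fits were tested on simulated data, where limma and edgeR kept false calls low and DESeq2 made more false calls than its threshold allows. Members and lists were chosen with earlier results of these data known. Depth of 32427029 counts or more per library leaves the spread between libraries, not counting error, as the limit for all but the sparsest genes.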

Additional observations from a re-analysis of the deposited data

Results flagged for a closer look

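Within a group of 5 libraries, a library was marked where its gap to the nearest other exceeded 0.71 of the group's range. Of 102 groups of values searched, 8 were marked, against 5.1 expected if 1 in 20 is marked by chance. Pfkfb1 was 1.24 log2 CPM in KPG1 5, with the other KPG1 libraries between 0.30 and 0.54. Pfkfb3 was 6.29 log2 CPM in KPG1 2, with the other KPG1 libraries between 5.84 and 5.95. Pgam2 was 0.20 log2 CPM in KP 2, with the other KP libraries between -2.21 and -1.66. Pklr was -1.25 log2 CPM in KPG1 1, with the other KPG1 libraries between 2.18 and 3.49. Ldha was 9.49 log2 CPM in KP 1, with the other KP libraries between 10.24 and 10.50. G6pdx was 6.43 log2 CPM in KP 1, with the other KP libraries between 6.68 and 6.76. The log2 ratio of Fbp1 to Pfkl was -3.35 in KP 5, with the other KP libraries between -5.58 and -4.94. The log2 ratio of Slc16a3 to Slc16a1 was -4.09 in KPG1 5, with the other KPG1 libraries between -3.01 and -2.75.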

How the results depend on the processing

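No member passed an adjusted p of 0.05 in edgeR's quasi-likelihood test, with upper quartile factors, with copies summed or without KP 1 and KP 5 together. Over all 16216 genes tested, DESeq2 passed 125 higher and 423 lower in KPG1 after adjustment, against 10 and 18 in the main limma fit. It passed 1 member in each direction, Rpe (0.50, adjusted p = 7.68e-05) and Pfkfb3 (-0.83, adjusted p = 0.0197), and 1 other pathway gene in each direction, Slc16a7 (0.86, adjusted p = 0.0150) and Myc (-0.63, adjusted p = 0.00494). On simulated counts DESeq2 passed unchanged genes more often than its threshold allows, and of these 4 genes only Rpe also passed elsewhere in limma with a weight per library (0.57, adjusted p = 0.0200, where 10 members were lower at an unadjusted p under 0.05, the share of all genes under it rose from 11.6% to 19.1% and the median of the members was -0.075), with a mean TPM of at least 20 (0.50, adjusted p = 0.0433) and without KP 5 (0.54, adjusted p = 0.0333). Over all genes, limma with a weight per library passed 51 higher and 177 lower in KPG1, of 16216 tested. With a mean TPM of at least 20 limma passed 8 and 29 of 7611, and without KP 5 it passed 71 and 223 of 16476. The library number of the titles, also used as a covariate, was largely confounded with genotype. With it Rpe was at 0.45 (limma adjusted p = 0.392) and the median of the members was -0.27. In that fit 2 of 19 other pathway genes were higher at an unadjusted p under 0.05, beside 9.91% of all genes in either direction. With a mean TPM of at least 20 that count was 3 of the 10 other pathway genes tested, beside 12.4% of all genes in either direction. Slc16a7 and Mpc2 did not pass that filter. With a mean CPM of at least 20 the median of the 11 other pathway genes tested was 0.071. The TPM filter, whose gene lengths came from GENCODE M21, and the summing of copies were chosen after seeing the data. Slc2a1, KPG1 against KP, passed with DESeq2 (-1.04, adjusted p = 0.000255), with a weight per library (-1.13, adjusted p = 0.0171) and without KP 1 and KP 5 together (-1.29, adjusted p = 0.0162); it ranged from -1.14 to -0.92 when 1 library was left out, with an adjusted p from 0.0220 (without KP 5) to 0.230.

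Leaving out 1 library gave 4 to 8 members lower and 1 to 2 higher at an unadjusted p under 0.05, 0 to 1 higher after adjustment, and 3 to 6 other pathway genes higher at an unadjusted p under 0.05. Over all genes the share under that p ran from 8.42% (without KPG1 3) to 18.6% (without KP 5) in the same fits. The number of all genes higher after adjustment ran from 3 (without KP 1, among others) to 71 (without KP 5). Same-numbered libraries did not clearly deviate together (correlations of -0.161 to 0.0760, 1 of 5 numbers best matched by its own). Weak correlations with 5 libraries per group cannot show whether the numbers mark pairs. With a replicate block, 6 members were lower and 1 higher at an unadjusted p under 0.05, beside 10.8% of all genes in either direction. In that fit the median of the members was -0.19, Rpe had a limma adjusted p of 0.256 and Slc2a1 one of 0.176. The direction of 25 members held under all alternatives run and that of 14 turned under at least 1, all with adjusted p over 0.05. The causes were not tested.

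With DESeq2, the sign turned for Tkt (-0.036). With edgeR's quasi-likelihood test, the sign turned for Tkt (-0.021). With the library number as a covariate, the sign turned for Hk1 (0.085), Pfkm (0.0021), Pgam1 (0.064), Eno3 (-0.18), Pgd (-0.0050). With a weight per library, the sign turned for Pfkm (0.066), Aldoc (0.011), Slc16a1 (0.082), Pgd (-0.045), Tkt (-0.015), Tigar (-0.027). Without KP 1 and KP 5 together, the sign turned for Pfkl (-0.0056), Pfkm (0.040), Fbp1 (0.22), Fbp2 (0.037), Pgd (-0.11), Rpia (0.016), Tkt (-0.20), Tigar (-0.13), Pfkm to Pfkl (0.057), Fbp1 to Pfkl (0.21), Eno2 to Eno1 (0.040). Leaving out 1 library turned the sign within ranges of -0.14 to 0.045 for Aldoc, -0.61 to 0.16 for Eno2 to Eno1, -0.072 to 0.26 for Eno3, -0.38 to 0.18 for Fbp1, -0.47 to 0.11 for Fbp1 to Pfkl, -0.030 to 0.079 for G6pdx to Gpi1, -0.12 to 0.026 for Hk1, -0.18 to 0.076 for Pfkm, -0.047 to 0.094 for Pgd, -0.026 to 0.17 for Pgls, -0.19 to 0.098 for Rpia, -0.22 to 0.096 for Slc16a1, -0.13 to 0.19 for Tigar, -0.23 to 0.17 for Tkt. Depth limits the sparsest genes, such as Hk3 and Pgam2.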
